A study of Bos taurus with 16 samples.

Results

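NR5A1, NR5A2, GATA4 and GATA6 are transcription factors that switch on steroid-producing genes in the ovary, testis and adrenal gland. On an Affymetrix bovine array their transcripts were measured by every probe set whose platform annotation gives only that gene symbol. They are 4 of the 9155 genes that the annotation names, and they had 7 of the 24016 probe sets tested: 4 for NR5A1 and 1 each for NR5A2, GATA4 and GATA6. A probe set is a group of short probes for 1 transcript, read out as 1 value. The array was hybridised with RNA from bovine theca interna cells, the layer of the follicle wall that makes androgens. The cells came from ovaries of adult cattle collected at a slaughterhouse, and each preparation pooled about 50 follicles of 4 to 6 mm in diameter. Culture lasted 6 days in defined medium without serum, and agents were present from day 3 to day 6. The 4 groups were an untreated control, LH (luteinising hormone) at 160 pg/ml, BMP6 at 10 ng/ml, which is a bone morphogenetic protein titled BMP on the samples, and both agents together (LH+BMP6). Each group had 4 arrays, from cells of different batches of ovaries, which gives 16 arrays. The pooled follicles mean that a replicate is a preparation and not an animal.

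NR5A1, also called steroidogenic factor 1 or SF-1, is an orphan nuclear receptor that binds a short DNA element as a monomer in the promoters of most steroidogenic enzyme genes. NR5A2, also called liver receptor homolog 1, binds the same element and in the ovary is best known from granulosa cells and the corpus luteum. GATA4 and GATA6 are zinc-finger proteins that bind the GATA motif and act with NR5A1 on many of the same promoters. LH acts through a receptor that raises cyclic AMP and drives theca steroidogenesis, while BMP6 belongs to the TGF-beta family and signals through SMAD proteins.

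Marker genes could not settle the theca label, because the values carry no detection call and probe sets of different genes cannot be compared in level. Read as a description, control arrays stood at 13.88 to 14.29 for INSL3, the relaxin-family hormone of theca cells, and at 6.59 to 8.56 for CYP17A1, the enzyme that makes androgens. The mean log2 signal of the 8 theca markers, NR5A1 among them, ranged from 9.23 to 9.70 over control arrays and from 9.69 to 10.64 over LH arrays. It ranged from 7.03 to 7.30 over BMP6 arrays and from 6.96 to 7.67 over LH+BMP6 arrays. Hybridisation-control signals, which come from transcripts spiked in for the assay and not from the cells, set 3 arrays apart. In control replicates 1 and 3 and LH replicate 1 they averaged 9.23 to 9.32 on the log2 scale, against 10.46 to 10.72 in the other 13. Results are therefore also given without these 3 arrays, a choice that depends on no gene of the cells. Actin 3′ minus 5′ signal, a sign of RNA quality, was 2.20 ± 0.35 in controls, 2.10 ± 0.16 with LH, 1.86 ± 0.28 with BMP6 and 1.72 ± 0.28 with both (log2, SD, n = 4 each).

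All values are log2 signals, so a difference of 1 is a doubling, with no detection call. Probe sets differ in how well they bind, so levels are compared between groups for 1 probe set and not between genes. The position of a member's signal among all 24016 probe sets is given only as a description. The brightest NR5A1 probe set averaged 8.79 over the 16 arrays, the 85.4th percentile. GATA6 averaged 11.20, the 97.8th percentile, and GATA4 9.51, the 91.2th. NR5A2 averaged 3.49, the 10.4th percentile, and 2 of 18 genes of other organs, such as liver, pituitary hormone and milk genes, lay at or below it. The same 18 genes ran from 2.88 to 9.85 with a median of 4.72, and 2 of them lay above GATA4, so a signal on this array does not by itself show expression.

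**Figure D1:**
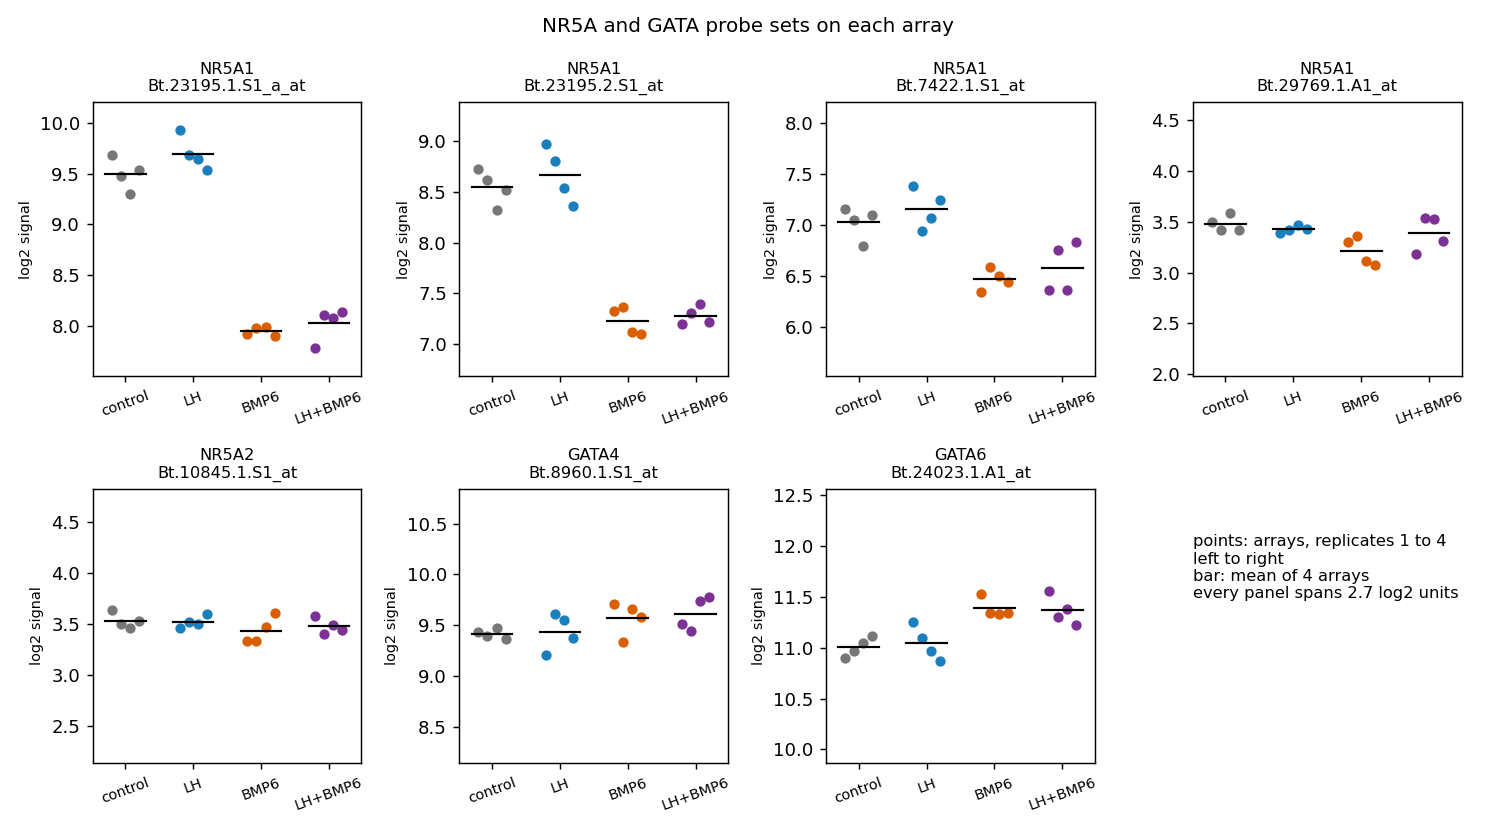
Each panel, titled with a gene and its probe set's identifier, plots the log2 signal (vertical axis) on each of 16 arrays, grouped on the horizontal axis by treatment, with a bar at the group mean (n = 4). The brightest NR5A1 probe set stands at 9.30 to 9.93 on the 8 arrays without BMP6 and at 7.79 to 8.14 on the 8 with it. GATA6 is higher on average with BMP6, although LH replicate 1 lies above LH+BMP6 replicate 4. GATA4 and NR5A2 overlap between groups.

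The first question was what BMP6 did to these factors in cells without LH. NR5A1 fell 2.92-fold and GATA6 rose 1.30-fold. GATA4 and NR5A2 did not pass the test. In limma's moderated test 5 of the 7 member probe sets were called at an adjusted p below 0.05, and 18.1% of all probe sets tested were. Called lower were all 4 NR5A1 probe sets, beside 9.95% of all probe sets, and called higher was that of GATA6, beside 8.12%.

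The brightest NR5A1 probe set read 9.68, 9.47, 9.30 and 9.53 in control replicates 1 to 4. With BMP6 it read 7.93, 7.98, 7.99 and 7.90. The groups did not overlap, and the BMP6 arrays lay within a narrow band. The change was -1.55 ± 0.10 (log2, SE, n = 4 per group; 95% interval -1.75 to -1.34; adjusted p = 2.91e-08 in limma). Its p-value was the 11th smallest of the 24016, and 88 probe sets, itself included, fell by as much or more. Leaving out the 3 arrays set apart by their spiked-in controls gave -1.55, and a covariate for the actin 3′ minus 5′ signal gave -1.65.

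The 4 NR5A1 probe sets, taken in order of mean signal, differed in the size of the fall. The second fell 2.49-fold, from 8.32 to 8.73 over control arrays to 7.10 to 7.37 over BMP6 arrays (adjusted p = 1.67e-06 in limma). The third, whose annotation points to a RefSeq transcript of the gene, fell 1.47-fold, from 6.79 to 7.16 down to 6.34 to 6.59 (adjusted p = 0.00437). Neither pair of groups overlapped. The dimmest, at the 8.61th percentile of signal, changed by -0.27 ± 0.08 (adjusted p = 0.0329). That call is lost without the 3 arrays (-0.21, adjusted p = 0.270) and with the actin covariate (-0.24, adjusted p = 0.0995). Averaging the 4 probe sets on each array gave NR5A1 a change of -0.92 (adjusted p = 2.72e-06), which is smaller than the value from the brightest by over 1.5 times.

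The difference between probe sets of the gene moved with BMP6 as well. Within an array the brightest NR5A1 probe set exceeded the third by 2.42 to 2.52 in controls and by 2.30 to 2.75 with LH. With BMP6 the excess was 1.40 to 1.59, and with LH+BMP6 it was 1.32 to 1.72. Arrays with and without BMP6 did not overlap on this measure. The place of each probe set on the transcript was not analysed here. Whether the gap comes from different transcripts or from probe sets that compress a change to different degrees was not tested.

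GATA6, a GATA factor that theca and other steroidogenic cells share with heart and gut, read 10.90, 10.96, 11.05 and 11.11 in controls. With BMP6 it read 11.53, 11.34, 11.34 and 11.34. Each BMP6 array was above each control array, and replicate 1 of BMP6 stood above the rest. The change was 0.38 ± 0.09 (95% interval 0.20 to 0.57; adjusted p = 0.00541 in limma), and 1918 probe sets rose by as much or more. Leaving out the same 3 arrays gave 0.35 (adjusted p = 0.0379).

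GATA4, which is needed for gonad formation and acts on many of the same promoters, read 9.44, 9.39, 9.47 and 9.36 in controls. With BMP6 it read 9.71, 9.33, 9.66 and 9.58. The groups overlapped through BMP6 replicate 2, the lowest value of both. The difference was 0.15 ± 0.10 (95% interval -0.06 to 0.37; adjusted p = 0.350). The interval includes 0 and reaches nearly the size of the GATA6 change, so it does not show that GATA4 was unaffected. NR5A2 read 3.63, 3.50, 3.46 and 3.53 in controls and 3.33, 3.34, 3.47 and 3.61 with BMP6, a difference of -0.10 ± 0.07 (95% interval -0.25 to 0.05; adjusted p = 0.401). Over all 16 arrays NR5A2 spanned 0.305, and only 4.34% of probe sets had a range as small or smaller.

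These are bulk samples, in which fewer cells of a type and less RNA per cell cannot be told apart. Some markers of other cells moved too. Of 7 stroma and fibroblast markers, 4 were called higher in BMP6 against control and 0 lower, beside 9.31% and 15.5% of all genes. The 4 were DCN, LUM, PDGFRA and TCF21. For PDGFRA 1 of 3 probe sets was called, and TCF21 is also on the list of regulators described below. The stroma list's array means were 11.58 to 12.00 in controls and 12.13 to 12.32 with BMP6. Called higher were also 2 of 9 granulosa markers, CDH2 and SERPINE2, on a list that holds NR5A2. So were 2 of 8 smooth muscle and pericyte markers and 1 of 8 leukocyte markers, and none of these lists had a gene called lower. Among 7 endothelial markers 1 rose and 1 fell. The leukocyte and endothelial counts are near the share over all genes. Changes of the 9 granulosa markers ran from -0.86 to 1.67. For BMP6 averaged over cells with and without LH, 2 were called higher and 2 lower, beside 1542 and 2165 of 9155 genes. Array means with control against BMP6 were 5.33 to 5.55 and 5.61 to 5.79 for granulosa markers, 8.28 to 8.69 and 8.32 to 8.88 for smooth muscle markers, 6.04 to 6.65 and 5.87 to 6.37 for endothelial markers, and 6.42 to 6.52 and 6.47 to 6.99 for leukocyte markers. The part of these cells in the NR5A1 and GATA6 results was not tested.

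The next comparison put BMP6 on cells that also had LH. In LH+BMP6 against LH, NR5A1 fell 3.18-fold and GATA6 rose 1.25-fold, and GATA4 and NR5A2 did not pass the test. Of the 7 probe sets, 4 were called, beside 20.3% of all: 3 of NR5A1 lower (10.3% of all were called lower) and GATA6 higher (9.99% were called higher). These groups share no array with the comparison above.

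The brightest NR5A1 probe set read 9.93, 9.69, 9.64 and 9.54 with LH, and 7.79, 8.11, 8.08 and 8.14 with LH+BMP6. The groups were separated by more than 1 log2 unit. The change was -1.67 ± 0.10 (SE, n = 4 per group; adjusted p = 2.64e-08 in limma), the 4th smallest p-value of the 24016. The second probe set changed by -1.39 ± 0.12 (adjusted p = 9.94e-07) and the third by -0.58 ± 0.13 (adjusted p = 0.00301), both again with no overlap. The dimmest probe set, by contrast, changed by -0.04 ± 0.08 (adjusted p = 0.805). The average of the 4 was -0.92 (adjusted p = 2.72e-06), again over 1.5 times smaller than the value from the brightest.

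GATA6 read 11.25, 11.10, 10.97 and 10.87 with LH, and 11.56, 11.30, 11.38 and 11.22 with LH+BMP6. LH replicate 1 was above LH+BMP6 replicate 4, so the groups overlapped by 1 array on each side. The change was 0.32 ± 0.09 (95% interval 0.13 to 0.51; adjusted p = 0.0152 in limma). Its call was lost without LH+BMP6 replicate 1 (0.25, adjusted p = 0.0558) and without LH replicate 4 (0.26, adjusted p = 0.0557). The call was also lost when 1 array of every group was left out, replicate 3 (0.29, adjusted p = 0.128) or replicate 4 (0.31, adjusted p = 0.0528). An exact two-sided permutation test of the arrays gave p = 0.0571, where 4 against 4 arrays cannot go below 0.0286.

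GATA4 read 9.21, 9.61, 9.55 and 9.37 with LH and 9.51, 9.44, 9.73 and 9.78 with LH+BMP6, a difference of 0.18 ± 0.10 (95% interval -0.03 to 0.39; adjusted p = 0.245). The groups overlapped. Without replicate 2 of every group the difference was 0.30 and passed the test (adjusted p = 0.0464). NR5A2 read 3.46, 3.52, 3.50 and 3.60 with LH and 3.58, 3.40, 3.49 and 3.44 with LH+BMP6, a difference of -0.04 (95% interval -0.19 to 0.10; adjusted p = 0.727).

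Some marker lists of other cells moved here too. In LH+BMP6 against LH 4 of 7 stroma markers, 2 of 9 granulosa markers and 4 of 8 leukocyte markers were called higher and none lower, beside 11.7% and 15.5% of all genes. Smooth muscle markers split into 3 higher and 2 lower of 8, and endothelial markers into 1 and 1 of 7. The endothelial counts are near the share over all genes. The stroma list's array means were 11.59 to 12.03 with LH and 12.20 to 12.31 with both agents, and those of the leukocyte list 6.19 to 6.63 and 6.71 to 6.98. Their part in the result was not tested.

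Averaged over cells with and without LH, the effect of BMP6 on the brightest NR5A1 probe set was -1.61 ± 0.07 (3.05-fold lower, adjusted p = 1.26e-10 in limma). It was 0.35 for GATA6 (95% interval 0.22 to 0.48) and 0.17 for GATA4 (95% interval 0.02 to 0.32). The GATA4 interval excludes 0, with an unadjusted p of 0.0325, but after adjustment over all probe sets p was 0.0900. In this average 4 of 7 member probe sets were called, beside 31.4% of all probe sets. GATA4 was called when any of LH replicate 2 (0.20), BMP6 replicate 2 (0.21) or replicate 2 of every group (0.26) was left out.

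**Figure D2:**
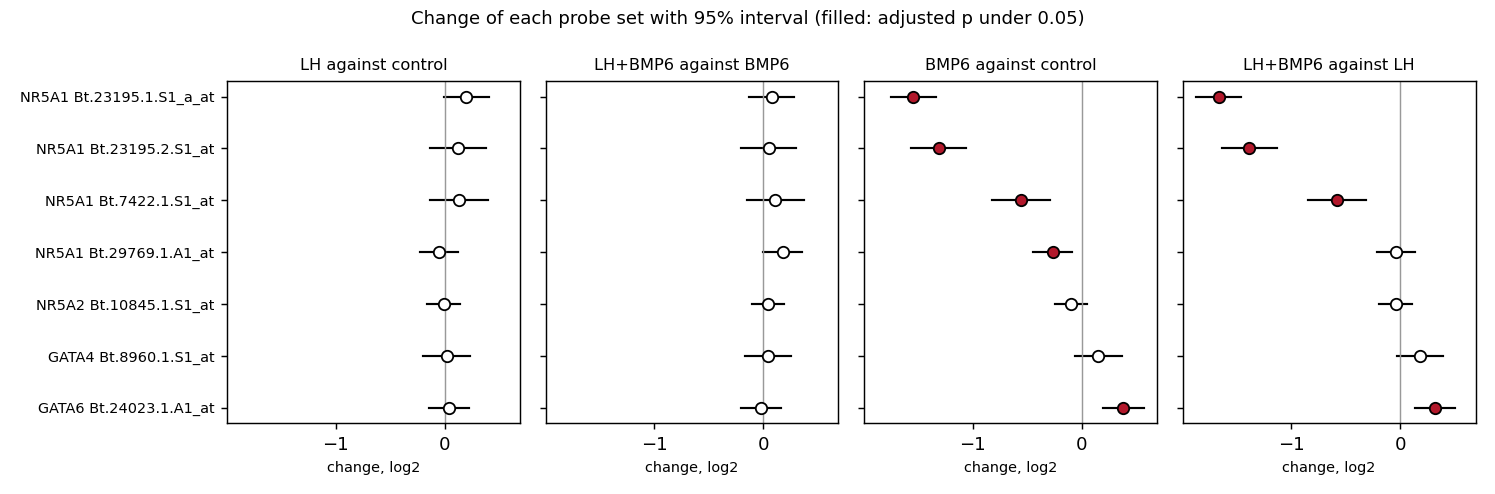
Each panel plots, for 1 comparison, the change of each member probe set (horizontal axis, log2) with its 95% interval, filled where the adjusted p was below 0.05. The NR5A1 points lie to the left in BMP6 against control (-1.55 to -0.27) and the GATA6 points to the right in both BMP6 comparisons, while no point in either LH comparison is filled.

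LH alone called none of the 7 member probe sets. In LH against control 0 had an unadjusted p below 0.05, and limma called 0.0125% of all probe sets, which is 3, with 1291 at an unadjusted p below 0.05. The brightest NR5A1 probe set differed by 0.20 ± 0.10 (95% interval -0.01 to 0.41; adjusted p = 0.914). The LH arrays lay at 9.54 to 9.93 and the controls at 9.30 to 9.68, so the groups overlapped. GATA4 differed by 0.02 (95% interval -0.20 to 0.23), GATA6 by 0.04 (95% interval -0.14 to 0.23) and NR5A2 by -0.01.

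In the presence of BMP6, LH also called none of them. In LH+BMP6 against BMP6, limma called 0% of all probe sets, with 471 at an unadjusted p below 0.05, 1 of which was the dimmest NR5A1 probe set. The brightest NR5A1 probe set differed by 0.08 (95% interval -0.13 to 0.29). LH averaged over BMP6 gave it 0.14 (95% interval -0.01 to 0.29), where 0.00416% of all probe sets were called. The interaction asks whether BMP6 acted differently with LH, and it called 0% of probe sets, with 773 at an unadjusted p below 0.05 and 0 of the 7 members among them. It was -0.12 for NR5A1 (95% interval -0.42 to 0.17) and -0.06 for GATA6 (95% interval -0.32 to 0.20), so a difference between the BMP6 effects in the 2 settings was not detectable with 4 arrays per group. LH+BMP6 against control, which shares its controls with the first comparison, gave -1.47 for NR5A1 (adjusted p = 5.13e-08) and 0.36 for GATA6 (adjusted p = 0.00777), and limma called 4 of the 7 members and 19.3% of all probe sets. Among these, the third NR5A1 probe set (-0.45), lost its call without control replicate 1, LH+BMP6 replicate 1 or LH+BMP6 replicate 3 (adjusted p = 0.0606, 0.0587 and 0.0683).

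Genes that NR5A and GATA factors are known to act on were described as a list of 28, of which the annotation names 24. In BMP6 against control 10 of the 24 were called lower and 0 higher, with a median change of -0.56 against -0.02 over all 9155 genes. Of all genes, 15.5% were called lower and 9.31% higher. In LH+BMP6 against LH 13 were called lower and 1 higher, with a median of -0.54 against -0.03 over all genes (15.5% lower, 11.7% higher). The gene called higher was INHBA, the activin beta A subunit (0.45, adjusted p = 0.0347), chosen after its value was seen. The count of 1 became 0 without any of LH replicates 2 or 3 or LH+BMP6 replicates 1, 2 or 4, and in BMP6 against control the 0 became 1 without control replicate 3.

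The enzymes of androgen synthesis fell. CYP17A1, which turns progestins into androgens, read 8.56, 7.03, 6.59 and 7.35 in controls and 4.34, 4.84, 4.89 and 4.26 with BMP6. With LH it read 10.85, 7.55, 8.30 and 8.05, and with LH+BMP6 4.46, 4.61, 4.78 and 4.32. All 8 arrays with BMP6 lay below all 8 without it, and LH replicate 1 was the highest by far. The change was -2.80 ± 0.52 without LH (adjusted p = 0.00115 in limma) and -4.15 ± 0.52 with it (adjusted p = 3.37e-05).

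CYP11A1, which makes pregnenolone from cholesterol, fell from 11.17 to 11.32 over control arrays to 8.81 to 9.36 over BMP6 arrays, 4.61-fold (adjusted p = 1.58e-07 in limma). In the presence of LH it fell 6.10-fold. HSD3B1, the 3-beta-hydroxysteroid dehydrogenase of the next step, fell 5.04-fold and, with LH, 6.65-fold (adjusted p = 8.96e-06 and 1.69e-06). SCARB1, the receptor that takes up cholesterol from high-density lipoprotein, changed by -0.72 and -1.33 (adjusted p = 0.00279 and 1.35e-05).

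STAR, which carries cholesterol into mitochondria, read 8.52, 8.36, 8.21 and 8.72 in controls and 5.73, 5.24, 8.18 and 7.72 with BMP6. All BMP6 arrays were below all control arrays, but they split into a low and a high pair. The change of -1.74 ± 0.68 did not pass the test (adjusted p = 0.0901 in limma), and it did without BMP6 replicate 3 (-2.23, adjusted p = 0.0371). In LH+BMP6 against LH it read 11.47, 9.49, 9.34 and 9.49 with LH and 5.03, 6.10, 7.81 and 8.01 with both, a change of -3.21 (adjusted p = 0.00264). Without replicate 1 of every group it was -2.14 and was still called (adjusted p = 0.0340).

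INSL3, INHA and the LH receptor gene fell too. INSL3 read 13.88 to 14.29 over control arrays and 6.85 to 10.12 over BMP6 arrays, a change of -5.70 ± 0.55 (adjusted p = 2.69e-06 in limma), and of -5.20 with LH present. INHA, the inhibin alpha subunit, read 10.03 to 11.28 and 6.06 to 6.74, a change of -4.13 ± 0.24 (adjusted p = 2.28e-08). LHCGR, the LH receptor, changed by -2.06 ± 0.19 (adjusted p = 1.33e-06), and 2 of its 3 probe sets were called lower. CYP19A1, FSHR and AMH, genes best known from granulosa cells, were not called in either comparison: they changed by 0.16, 0.07 and -0.43 with BMP6 alone (adjusted p = 0.363, 0.712 and 0.0512) and by -0.13, -0.08 and -0.26 with LH present. For CYP19A1 this is the brightest of 4 probe sets, of which 1 was called lower with LH present.

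**Figure D3:**
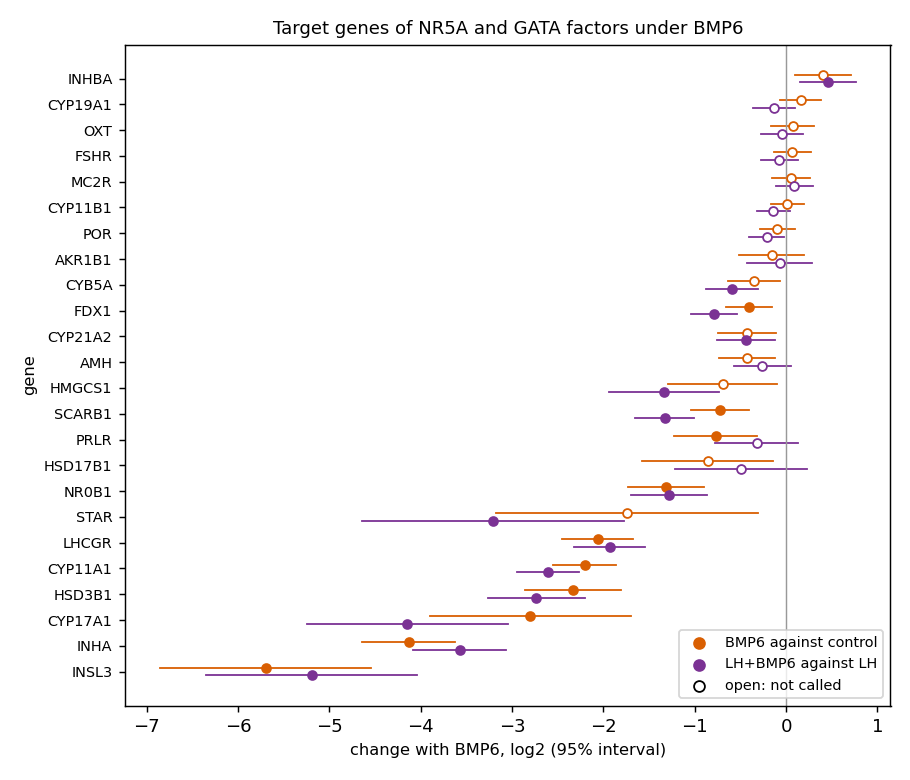
Each row is 1 of 24 genes that NR5A and GATA factors act on, and points give the change with BMP6 on the log2 scale (horizontal axis, 95% interval) without LH and with LH, open where not called. INSL3 (-5.70 and -5.20) lies farthest to the left, followed by INHA (-4.13 and -3.58) and CYP17A1 (-2.80 and -4.15).

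LH alone called 0 of these 24 genes in limma, beside 0.0218% of all genes. At an unadjusted p below 0.05 in limma stood 11 of the 24, beside 496 of all 9155 genes. The median change was 0.19 against -0.00 over all genes. STAR differed by 1.49 and CYP17A1 by 1.31 in LH against control, CYP11A1 by 0.50 and SCARB1 by 0.73. STAR's smallest LH value of 9.34 was above its highest control value of 8.72, so these groups did not overlap, although the adjusted p was 0.914. The values of LH replicate 1, among the 3 arrays set apart, were the highest for STAR and CYP17A1. Leaving that array out reduced STAR to 0.98, CYP17A1 to 0.59, SCARB1 to 0.52 and CYP11A1 to 0.29. Control replicate 1, also set apart, was the highest control for CYP17A1 (8.56). Without replicate 1 of every group STAR differed by 1.01, CYP17A1 by 0.98, SCARB1 by 0.45 and CYP11A1 by 0.26.

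Because the target genes and NR5A1 both fell with BMP6, arrays with and without it form separate clusters, and a correlation over all 16 would only restate that. Within the 8 arrays without BMP6, and separately within the 8 with it, NR5A1 was set against 8 target genes, which makes 16 relations chosen after the data were seen. Without BMP6 CYP17A1 followed NR5A1 with Pearson's r = 0.91 (exact permutation p = 0.00188, adjusted p = 0.0252) and Spearman's rho = 0.86 (exact permutation p = 0.0107, adjusted p = 0.0820). HSD3B1 gave r = 0.89 and rho = 0.83 (exact permutation p = 0.00315 and 0.0154, adjusted p = 0.0252 and 0.0820). STAR gave r = 0.84 and rho = 0.76 (exact permutation p = 0.0103 and 0.0368, adjusted p = 0.0412 and 0.147), and NR0B1 r = 0.90 and rho = 0.60 (exact permutation p = 0.00883 and 0.132, adjusted p = 0.0412 and 0.265). After adjustment over the 16 relations these passed by r and none passed by rho. By r, CYP11A1 (0.80, exact permutation adjusted p = 0.0584), SCARB1 (0.70, 0.161), LHCGR (0.66, 0.168) and INHA (0.27, 0.598) did not pass. The permutations treated the 8 arrays as independent. Replicate 1 was the highest control and the highest LH array for NR5A1 (9.68 and 9.93) and CYP17A1 (8.56 and 10.85). Whether arrays of 1 number share a batch is not stated, and if they do these p-values could be too small.

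Leaving out the 2 arrays of most extreme NR5A1 signal weakened these relations. It also narrowed the range of NR5A1, which by itself can lower r. Without LH replicate 1 and control replicate 3, the arrays farthest from the median NR5A1 signal and both among the 3 arrays set apart, r over the remaining 6 was 0.66 for CYP17A1, 0.50 for HSD3B1, 0.38 for STAR and 0.32 for NR0B1. The 8 arrays without BMP6 are also of 2 groups, control and LH. Taken as deviations from each group's mean, r over all 8 was 0.87 for CYP17A1, 0.87 for HSD3B1, 0.75 for STAR and 0.92 for NR0B1. These values of r were not tested. With BMP6 none of the 8 relations passed after adjustment by r or rho, and r ran from -0.47 for HSD3B1 to 0.62 for LHCGR. LHCGR had rho = 0.83 there (exact permutation p = 0.0154, adjusted p = 0.0820).

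**Figure D4:**
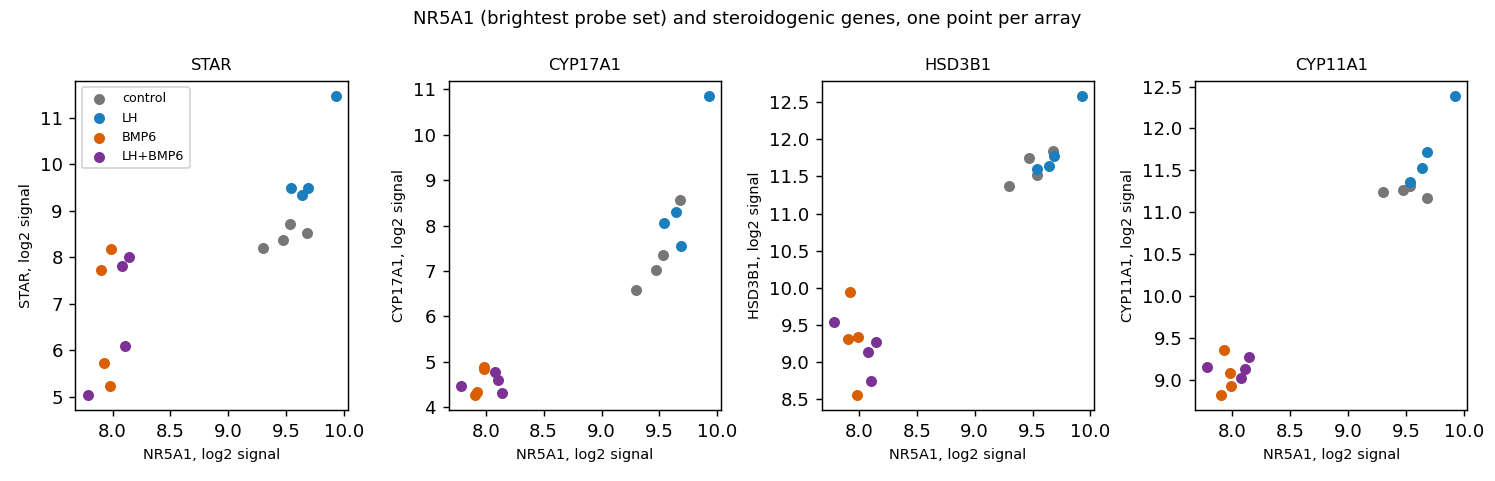
Each panel plots the log2 signal of STAR, CYP17A1, HSD3B1 or CYP11A1 (vertical axis) against that of the brightest NR5A1 probe set (horizontal axis), 1 point per array, coloured by treatment. The 8 arrays with BMP6 sit to the lower left, at or below 8.14 for NR5A1 with CYP17A1 at 4.26 to 4.89, and LH replicate 1 sits at the top right.

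Cofactors and regulators of the 2 families came next. The list holds 53 genes, of which the annotation names 33. In BMP6 against control 11 were called higher and 4 lower, beside 9.31% and 15.5% of all genes. The 4 became 2 without BMP6 replicate 4, without replicate 4 of every group or without the 3 arrays set apart. With LH present 11 were called higher and 3 lower, beside 11.7% and 15.5% of all genes. The medians were 0.11 and 0.16. LH against control called 0 of the 33 in limma, with 3 at an unadjusted p below 0.05, beside 496 of all 9155 genes.

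NR0B1, also called DAX-1, is an orphan nuclear receptor without a usual DNA-binding domain that binds NR5A1 and represses it, and its own gene is an NR5A1 target. It read 5.66, 5.66, 5.07 and 5.46 in controls and 4.39, 3.61, 4.05 and 4.54 with BMP6. With LH it read 6.08, 5.62, 5.54 and 5.37, and with LH+BMP6 4.68, 4.07, 4.34 and 4.39. All arrays with BMP6 lay below all arrays without it. The change was -1.31 ± 0.20 (adjusted p = 0.000202 in limma), and -1.28 with LH present (adjusted p = 0.000221). Only 1 of its 2 probe sets was called.

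The inhibitors of DNA binding ID1, ID2 and ID3, which sequester basic helix-loop-helix proteins and are textbook targets of BMP signalling, rose. ID1 stood at 7.87 to 8.57 in controls and at 10.57 to 11.27 with BMP6, a change of 2.71 ± 0.20 (adjusted p = 1.59e-07 in limma), and of 2.82 with LH present, and 1 of its 2 probe sets was called. ID3 changed by 1.62 and 1.85, and ID2 by 1.40 and 1.66, each passing the test in both comparisons.

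NR4A1, also called NUR77, is an orphan nuclear receptor that binds elements like those of NR5A1 in some steroidogenic promoters, and it rose. It stood at 6.08 to 6.46 in controls and at 7.09 to 7.75 with BMP6, a change of 1.16 ± 0.19 (adjusted p = 0.000344 in limma). With LH present the change was 1.58 (adjusted p = 1.72e-05). Its relative NR4A2 rose by 0.97 and 1.21 (adjusted p = 0.00107 and 0.000146), but only 1 of its 4 probe sets was called, and the lowest of the 4 changed by -0.01 and -0.10.

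The other genes called lower with BMP6 alone were CITED1, EDF1 and DDX20, named after their values were seen. CITED1, a coactivator that binds CBP and p300, changed by -0.75 and -1.61 (adjusted p = 0.00559 and 8.16e-06). DDX20, an RNA helicase that represses NR5A1 activity, changed by -0.30 and -0.28. EDF1, a bridging coactivator, changed by -0.35 (adjusted p = 0.0130) and, with LH present, by -0.17 (adjusted p = 0.225).

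Some regulators often studied beside these factors were not called in either comparison. CITED2, a coactivator of NR5A1 in the adrenal, changed by -0.03 and 0.07. NR2F1 and NR2F2, the COUP-TF receptors that can occupy NR5A1 elements and repress them, changed by -0.07 and 0.03 and by 0.08 and 0.15. For NR2F2 this is the brightest of 3 probe sets. The 3 ran from -0.30 to 0.30 and, with LH present, from 0.15 to 0.56, and none was called. The annotation used here names no probe set for NR0B2, PROX1, ZFPM1 or ZFPM2, so these partners were not analysed here.

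**Figure D5:**
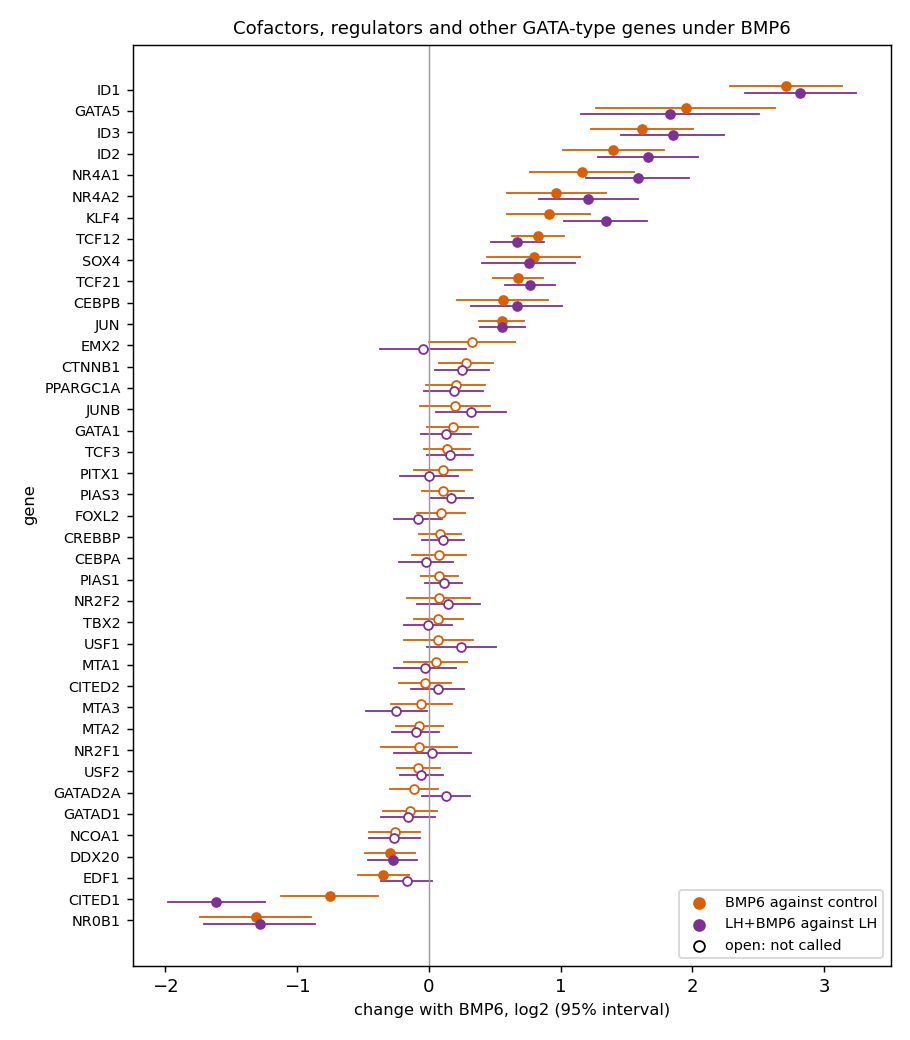
Each row is 1 cofactor, regulator or other GATA-type gene, and points give the change with BMP6 (horizontal axis, log2, 95% interval) without and with LH, open where not called. ID1 (2.71 and 2.82) lies farthest to the right, followed by GATA5 (1.95 and 1.83) and ID3 (1.62 and 1.85), and NR0B1 (-1.31 and -1.28) and CITED1 (-0.75 and -1.61) lie farthest to the left.

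Of 12 other GATA-type zinc finger genes, 7 are named by the annotation. GATA5 was called higher in both BMP6 comparisons while none of the others was called. This 1 of 7 stands beside 9.31% of all genes called higher without LH and 11.7% with it. GATA5, which binds the same motif as GATA4 and GATA6, read 6.33, 5.80, 5.62 and 5.70 in controls and 8.47, 6.64, 8.24 and 7.89 with BMP6. With LH it read 6.32, 5.72, 5.82 and 6.03, and with LH+BMP6 8.32, 7.05, 7.96 and 7.86. All arrays with BMP6 were above all arrays without it, and replicate 2 was the lowest in both groups that had BMP6. GATA5 rose 3.86-fold (1.95 ± 0.32, adjusted p = 0.000436 in limma) and, with LH present, 3.55-fold (adjusted p = 0.000615). GATA1 changed by 0.18 and 0.13 and was not called, and GATA2, GATA3 and TRPS1 were not analysed here.

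Of 44 other nuclear receptors the annotation names 25. In each BMP6 comparison 3 were called higher and 0 lower, and for the higher ones this is near the share over all genes of 9.31% without LH and 11.7% with it. The 0 became 1 in LH+BMP6 against LH without LH replicate 4 or LH+BMP6 replicate 1. The 3 were NR4A1 and NR4A2, described above, and RORA, an orphan receptor that binds half-sites as a monomer. RORA stood at 5.59 to 6.00 in controls and at 6.20 to 6.91 with BMP6, a change of 0.69 (adjusted p = 0.00253 in limma), and of 0.56 with LH present (adjusted p = 0.00983). The list's medians were 0.01 and 0.03, close to the -0.02 and -0.03 of all genes.

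Other genes were ranked by how closely their profile over the 16 arrays matched that of each member, after each probe set was centred on its own mean. For the brightest NR5A1 probe set these were PYROXD2, MACROH2A2, APOD, TMEM254 and PIGS, with root mean square differences of 0.171, 0.179, 0.181, 0.199 and 0.205 log2 units against a median of 0.819 over all named probe sets. PYROXD2 changed by -1.51 in BMP6 against control and APOD, a lipocalin that carries lipids, by -1.60. For GATA6 they were PLSCR4, KIF5B, STAT4, PICALM and ARID4B, with differences of 0.0836 to 0.0902 against a median of 0.272. KIF5B, a kinesin motor, changed by 0.29 and STAT4, a cytokine-activated transcription factor, by 0.46. The ranking describes likeness in these 16 arrays, whose main contrast is BMP6, and GATA4 and NR5A2, called in no comparison, were not ranked against other genes.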

How the data were processed

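RNA of 16 cultures was hybridised to Affymetrix bovine arrays. The deposited log2 signals are RMA values that the authors took from Affymetrix Expression Console, according to the submitters' processing notes, which name no version. RMA forces all arrays to 1 distribution and compresses changes of dim probe sets. The values were used as deposited, with no filter. After 112 control probe sets were left out, 24016 were tested. The platform annotation gave 13292 of them 1 symbol, 86 several and 10638 none. The named ones stand for 9155 genes, each represented by its probe set of highest mean. limma 3.58.1 (R 4.3.3) was fitted to all 16 arrays with 1 coefficient per group and a trended prior, with Benjamini-Hochberg adjustment over all probe sets in each of 8 comparisons and a threshold of 0.05. The script was tested on simulated data. Python 3.11.15 gave the exact permutation tests of correlations.

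Members, gene lists and tests were chosen with earlier results of these data known. The named genes were the members, 12 target genes, listed regulators, up to 5 genes per other list with the largest called change in BMP6 averaged over LH, and the 5 genes most like each called member. Replicate numbers were not taken as a pairing. Alternatives were other scalings, filters, priors, probe set rules, blocks and left-out arrays. The number of arrays limits the precision: the median standard error of a 2-group change was 0.10.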

Additional observations from a re-analysis of the deposited data

Results flagged for a closer look

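Within groups of 4 arrays, 4 of 148 groups examined held a lone array far from the other three, where chance marks about 1 in 20. GATA6 was 11.53 in BMP6 replicate 1, against 11.34 in the nearest other array. STAR was 11.47 in LH replicate 1, against 9.49. ID3 was 8.65 in BMP6 replicate 2, against 9.13, and AKR1B1, an aldo-keto reductase, was 8.35 in BMP6 replicate 2, against 9.05.

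CYP19A1, the aromatase gene, changed by 0.16 in BMP6 against control and by -0.13 in LH+BMP6 against LH, and every BMP6 array lay above the control mean while every LH+BMP6 array lay below the LH mean. The interaction in limma was -0.29 (95% interval -0.61 to 0.03; adjusted p = 1.00), so the difference did not pass its test.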

How the results depend on the processing

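For the 4 genes, each by its brightest probe set, in 8 comparisons, 830 of 840 values under alternatives kept their side of the threshold, 4 crossed it to be called and 6 lost the call. The sign changed in 41, none of them called in either setting. For the other 3 NR5A1 probe sets 599 of 622 kept their side, 6 gained the call and 17 lost it, and the sign changed in 17 uncalled values. GATA6 in LH+BMP6 against LH was 0.32 with p = 0.0571 in the exact permutation test and 0.25 to 0.39 when arrays were left out, losing the call in 4 of these settings. In LH+BMP6 against control it was 0.26 to 0.45 and lost the call without replicate 3 of every group (adjusted p = 0.0567). GATA4 with BMP6 averaged over LH was 0.12 to 0.26, and in LH+BMP6 against LH 0.11 to 0.30, each called in some of these settings.

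Same-numbered deviations correlated at 0.02 to 0.32 in LH against control, -0.11 to 0.15 in BMP6 against control, 0.09 to 0.27 in LH+BMP6 against LH and 0.08 to 0.69 in LH+BMP6 against BMP6, and 5, 4, 7 and 5 of 8 arrays correlated best with their own number. With the replicate number as a block, none of 64 values of the genes' brightest probe sets changed its call, and 1 of 48 of the other NR5A1 probe sets did: the dimmest in BMP6 averaged over LH was called with a random block (-0.15, adjusted p = 0.0441). In this fit GATA6 in LH+BMP6 against LH had an adjusted p of 0.00829 with a fixed and 0.00924 with a random block. The block moved the target genes called higher in BMP6 against control from 0 to 1, as did a term for arrays of low hybridisation controls; leaving out arrays gave 0 to 1. The actin covariate moved those called higher in LH+BMP6 against LH from 1 to 0, and leaving out arrays gave 0 to 1.

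Counts of called probe sets moved more. BMP6 against control gave 4340, 2703 to 4049 when arrays were left out, 2660 without the 3 arrays whose spiked-in controls were low and 2766 with a term for them. LH+BMP6 against control gave 4635, 2754 to 4262, 2837 and 2774 in the same order. LH+BMP6 against LH gave 4879 and 2963 to 4867. Other alternatives raised the counts. The highest were 5202 in BMP6 against control, 5517 in LH+BMP6 against control and 5706 in LH+BMP6 against LH. LH against control gave 3, then 0 to 6, 0 without the 3 arrays and 1 with only the arrays compared, and LH averaged over BMP6 gave 1, 0 to 2 and 0. No background was estimated, so whether the dim NR5A2 signal lies above it is unknown. The causes were not tested.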
